A study of Mus musculus with 30 samples.

Results

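The 33 genes described here are expressed by microglia, the resident macrophages of the brain, or by myeloid cells in general. They were taken by symbol and followed by Ensembl identifier through 3 tables of gene counts holding 52286, 55401 and 22371 genes. They fall into 12 homeostatic genes of resting microglia, 11 activation and phagocytosis genes, the 3 chains of complement C1q and 7 pan-myeloid genes. Bulk RNA was sequenced from the hypothalamus of wild-type B6 mice in 9 groups and 30 libraries. The fasting table holds 4 groups of 3 libraries each: fed mice, mice without food for 24 h, mice without food for 72 h, and mice that spent the 72 h fast in the cold (18 C). The refeeding table holds mice that were refed for 1 h (n = 3), 12 h (n = 3) or 1 week (n = 4) after a 72 h fast. The third table holds mice refed for 1 month after a 72 h fast (n = 4) and fed controls of their own (n = 4). Age and sex are not given in the sources used here, and neither is how many animals the libraries of a group represent, so p-values here speak of the scatter among libraries, part of which may be technical. Comparisons stay within a table.

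Microglia arise from yolk sac progenitors and persist in the brain by self-renewal. Their survival depends on the receptor CSF1R, which binds CSF1 and interleukin 34, and their identity is kept by TGF-beta and by transcription factors such as SALL1 and PU.1, the product of Spi1. Resting microglia survey the tissue with purinergic and fractalkine receptors. On activation they raise phagocytic and lysosomal genes, and the TREM2 receptor with its adaptor TYROBP is one route to that state. In the hypothalamus, microglia are known to respond to diet and feeding state. Many genes of this group are shared with border-associated macrophages of the meninges and perivascular space, and with blood monocytes.

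PU.1 recognises purine-rich sequences around GAGGAA, so the promoters of the members were read from RefSeq on GRCm38.p6, from 250 bases before to 50 bases after each start. The table held 25 of the 33 members, with 30 promoters, and did not hold Tmem119, Csf1r, Gpr34, Selplg, Tyrobp, Cd14, C1qa or Spi1. On either strand GAGGAA occurred in 14 of these 30 promoters (46.7%) and in 28.3% of all 32851 promoters in the table. By gene it was found in 13 of the 25 members (52%) and in 31.3% of all 27025 genes. Among the classes it was found in 6 of 9 activation genes and 2 of 2 C1q genes. The homeostatic genes, with 3 of 8 (37.5%), and the pan-myeloid genes, with 2 of 6 (33.3%), were near the share of all genes. The longer form GAGGAAGT, which contains the first, occurred in 2 of the 30 and in 3.2% of all promoters. The PU.1-IRF composite GGAANNGAAA occurred in 1 of the 30 and in 2.72% of all. These matches are descriptions of letters and do not show binding. Below are 4 promoters of genes to which the results return, 5′ to 3′ on the strand of the gene, with the matches on either strand in capitals. Fcrls is the homeostatic gene with the widest swings, at chr3:87263475-87263774 (minus strand), and holds GAGGAA. Ctss, at chr3:95526536-95526835 (plus strand), and C1qc, at chr4:136892865-136893164 (minus strand), are the 2 members with GAGGAAGT, here as its reverse complement. Cd68, at chr11:69666121-69666420 (minus strand), holds GAGGAA and, near its end, the reverse complements of the composite and of GAGGAA, which overlap.
Fcrls: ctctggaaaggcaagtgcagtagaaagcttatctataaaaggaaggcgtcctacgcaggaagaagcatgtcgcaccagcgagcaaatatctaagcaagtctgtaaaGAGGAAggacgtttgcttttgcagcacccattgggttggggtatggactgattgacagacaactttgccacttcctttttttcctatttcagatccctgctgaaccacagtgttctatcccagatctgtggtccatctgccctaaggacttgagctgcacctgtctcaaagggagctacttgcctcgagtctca
Ctss: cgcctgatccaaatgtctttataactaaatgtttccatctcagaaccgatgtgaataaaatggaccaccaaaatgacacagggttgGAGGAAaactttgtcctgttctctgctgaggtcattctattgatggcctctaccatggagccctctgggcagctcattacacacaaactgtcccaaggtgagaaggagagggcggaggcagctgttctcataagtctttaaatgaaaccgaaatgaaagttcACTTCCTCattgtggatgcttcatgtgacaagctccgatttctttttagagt
C1qc: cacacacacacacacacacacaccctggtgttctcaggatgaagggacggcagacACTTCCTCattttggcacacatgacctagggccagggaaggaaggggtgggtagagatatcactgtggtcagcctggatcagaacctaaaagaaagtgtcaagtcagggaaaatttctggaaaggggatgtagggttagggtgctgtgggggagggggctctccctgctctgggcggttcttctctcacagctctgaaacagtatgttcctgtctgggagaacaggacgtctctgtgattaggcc
Cd68: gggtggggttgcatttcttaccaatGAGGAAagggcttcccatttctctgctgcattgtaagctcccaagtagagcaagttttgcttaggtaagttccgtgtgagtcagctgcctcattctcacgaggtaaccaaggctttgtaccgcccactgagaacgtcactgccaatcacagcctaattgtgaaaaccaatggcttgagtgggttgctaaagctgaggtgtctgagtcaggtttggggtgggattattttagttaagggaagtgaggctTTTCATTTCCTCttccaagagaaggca

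Total counts per library were between 26115967 and 43397395 in the fasting table and the refeeding libraries of 1 h and 12 h, between 46909406 and 64269426 at 1 week, and between 9347942 and 13813956 in the 1-month table. The 1-week libraries therefore differ from the others of their table in depth as well as in time of refeeding, and the 2 cannot be told apart. After a filter on low counts 28 members were tested among 20408 genes in the fasting table, 28 among 19932 in the refeeding table and 32 among 14867 in the 1-month table. A gene passed, or was called, at an adjusted p below 0.05 in edgeR's quasi-likelihood test, and changes are log2 fold changes ± SE. P2ry12 and P2ry13, purinergic receptors inside Med12l, Gpr34, a lysophosphatidylserine receptor inside Cask, the transcription factor gene Irf8 and the integrin gene Itgam, whose spans are covered by other annotated genes, had 0 counts in every fasting and refeeding library. All 5 had counts in the 1-month table. Of genes lying inside a gene on the opposite strand and well counted at 1 month, 428 of 465 (92%) were at 0 in the earlier tables, against 0 of 6470 without overlap. These zeros are therefore not read as silence. Cx3cr1 shares 57.4% of its span, though 2% of its exonic bases, with other genes. Itgam was below the filter at 1 month, with 0.165 to 0.619 CPM (counts relative to the TMM-scaled library total) in controls and 0 to 0.288 CPM in refed libraries.

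The defining microglial markers were present in every group in which they could be counted. Levels can be compared between genes per kilobase of exon in the 1-month controls, where overlapping genes were counted. There Ctss, which encodes the lysosomal protease cathepsin S, was at 42.7 ± 5.96 CPM per kb (SD, n = 4), C1qb, a chain of C1q, at 25.4 ± 2.91 and C1qa at 21.7 ± 4.33. The growth factor receptor gene Csf1r was at 15.4 ± 1.83 CPM per kb, Tyrobp at 11 ± 0.183, P2ry12 at 6.19 ± 1.44, Cx3cr1 at 4.22 ± 0.328 and Tmem119 at 3.52 ± 0.351. At the low end were Trem2 at 1.02 ± 0.271, Cd14 at 0.854 ± 0.0765, Spi1 at 0.598 ± 0.209 and Cd33 at 0.56 ± 0.101 CPM per kb. Lowest were Irf8 at 0.399 ± 0.096 and Itgam at 0.0724 ± 0.0441 CPM per kb. The intervals of mean ± SD of C1qb and C1qa overlapped, as did those of Spi1 and Cd33, while that of Ctss lay above all others.

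**Figure D1:**
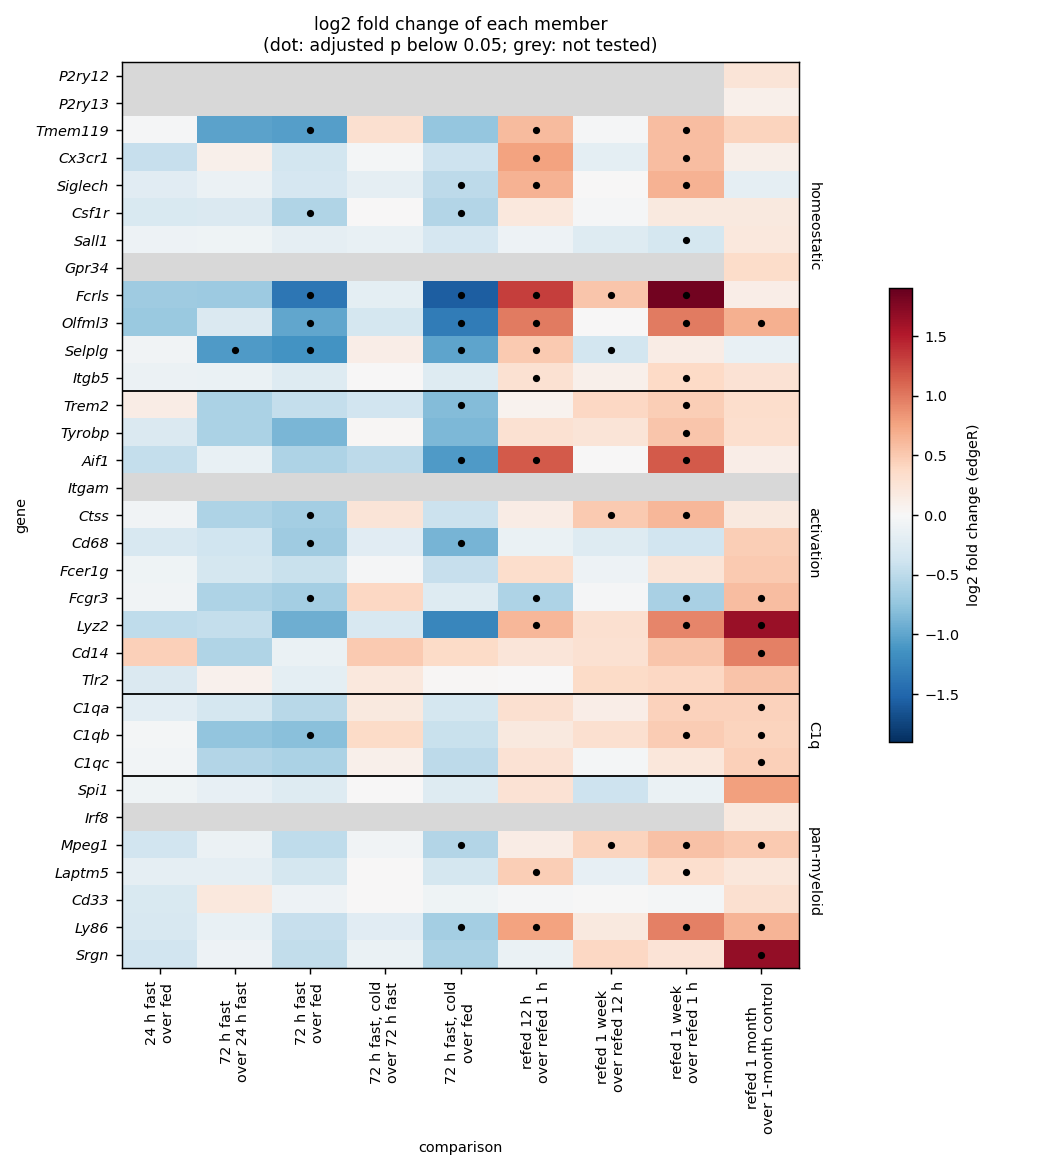
Log2 fold change of the 33 members (rows, by class) in 9 comparisons (columns, second condition over first), fitted with edgeR; a dot marks an adjusted p below 0.05 and grey a gene that was not tested. The column of 72 h of fasting against fed holds 28 of 28 values below 0, that of 12 h over 1 h of refeeding 23 of 28 above 0, and that of 1 month 30 of 32 above 0.

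After 72 h without food, 9 of the 28 measured members fell and 0 rose relative to fed mice. Among all genes tested 7.28% were called higher and 7.78% lower. The 9 were 5 of 9 homeostatic genes (Fcrls, Selplg, Olfml3, Csf1r and Tmem119), 3 of 10 activation genes (Cd68, Fcgr3 and Ctss) and C1qb of the 3 C1q genes, with 0 of 6 pan-myeloid genes. The members' median log2 fold change was -0.50 where that of all genes was 0.01, and all 28 had a value below 0, as did 49.4% of all genes. The median was -0.57 over the homeostatic and -0.62 over the activation genes. In bulk RNA fewer cells and less RNA per cell cannot be told apart.

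Fcrls, a microglial Fc receptor-like gene, was at 12.6, 13.4 and 9 CPM in fed libraries 1 to 3 and at 5.33, 4.07 and 4.09 CPM after 72 h. Every fasted library lay below every fed one, and the log2 fold change was -1.37 ± 0.23 (SE, adjusted p = 0.00876 from edgeR's quasi-likelihood test). Selplg, which encodes the selectin ligand PSGL-1, was at 26.1, 22.5 and 19.6 CPM when fed and 9.8, 8.36 and 12.9 CPM when fasted, again without overlap (-1.13 ± 0.20, adjusted p = 0.00942). Olfml3, which encodes a secreted matrix protein, went from 14.3, 16.2 and 14.1 CPM to 8.12, 8.63 and 5.8 CPM, a log2 change of -0.99 ± 0.19 (adjusted p = 0.012). Csf1r was at 64.5, 64.5 and 50.6 CPM in fed libraries and at 42.6, 42 and 36.4 CPM after 72 h (-0.57 ± 0.13, adjusted p = 0.0174). The highest fasted library of this survival receptor lay below the lowest fed one. Tmem119, a transmembrane protein used to tell microglia from other macrophages, was at 11.8, 10.6 and 8.37 CPM against 4.55, 5.04 and 5.41 CPM (-1.04 ± 0.27, adjusted p = 0.0277).

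Among activation genes Cd68, a lysosomal glycoprotein of phagocytes, was at 5.08, 6.4 and 4.78 CPM in fed libraries and at 3.93, 3.07 and 3.16 CPM after 72 h (-0.68 ± 0.17, adjusted p = 0.0265). Fcgr3, a low-affinity IgG receptor, was at 10, 9.22 and 9 CPM against 6.42, 5.47 and 6.09 CPM, all 3 fasted libraries below all 3 fed ones (-0.65 ± 0.17, adjusted p = 0.0282). Ctss stood at 57, 51.2 and 39.8 CPM in fed and 35.9, 31.8 and 26.7 CPM in fasted libraries (-0.65 ± 0.19, adjusted p = 0.042). C1qb was at 30.2, 27.9 and 20.4 CPM against 16.5, 15.1 and 13.6 CPM (-0.79 ± 0.22, adjusted p = 0.0358). The other 2 C1q chains, C1qa and C1qc, had values of -0.53 ± 0.28 and -0.60 ± 0.27 that did not pass (adjusted p = 0.189 and 0.129). Genes nearest to the threshold were Ly86 (-0.44 ± 0.15, adjusted p = 0.0578), a partner of a Toll-like receptor homologue, Mpeg1 (-0.48 ± 0.16, adjusted p = 0.059), which encodes the pore-forming perforin-2, and Tyrobp (-0.87 ± 0.31, adjusted p = 0.0729). Cx3cr1, the fractalkine receptor, was at 35, 35.9 and 27.1 CPM in fed and 26, 25.5 and 25.2 CPM in fasted libraries (-0.35 ± 0.13, adjusted p = 0.0829). Trem2 (-0.46 ± 0.23), Aif1, which encodes the microglial stain IBA1 (-0.59 ± 0.23), Spi1 (-0.24 ± 0.24) and Cd14, a lipopolysaccharide co-receptor gene (-0.12 ± 0.49), did not pass. The other 9 uncalled members (Lyz2, Siglech, Itgb5, Sall1, Srgn, Laptm5, Fcer1g, Tlr2 and Cd33) had log2 values from -0.93 to -0.09.

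**Figure D2:**
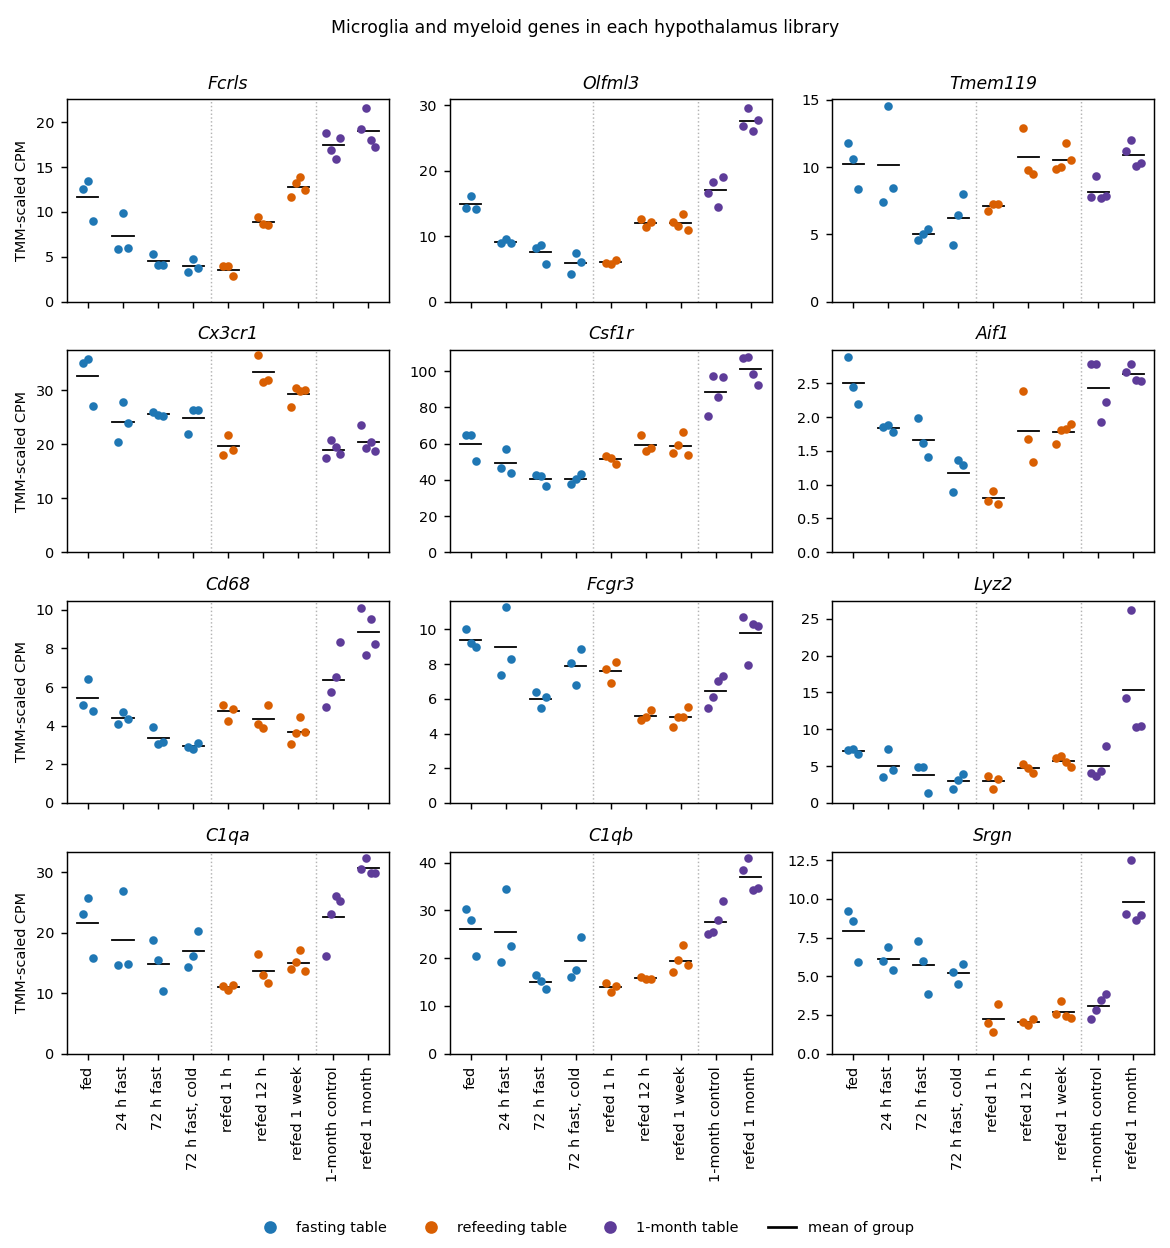
TMM-scaled CPM (vertical axes, from 0) of 12 members in each library, by group; points are libraries, bars group means, and dotted lines part the 3 tables, between which levels are not compared. Fcrls, for example, lies between 9 and 13.4 CPM in fed libraries, between 4.07 and 5.33 CPM after a 72 h fast, and between 8.59 and 9.41 CPM after 12 h of refeeding against 2.81 to 3.97 CPM after 1 h.

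The size of this count rested on single libraries. Leaving out 72 h library 1, 2 or 3 gave 5, 4 and 2 called members, and leaving out fed library 1, 2 or 3 gave 3, 3 and 14. Fcrls and Selplg passed in all 6 of these fits. Fed library 2 held transcripts of other tissue, with summed skeletal muscle markers of 1560 CPM against 34.4 to 34.6 CPM in the other fed libraries, and summed liver markers of 1120 CPM against 304 to 327 CPM. Fed library 3 stood furthest from the other fed libraries over all genes. Its chi-square per degree of freedom was 73.6 with library 1 and 106 with library 2, against 21.5 between libraries 1 and 2. It was the lowest fed library in each called member. With a surrogate variable in the model 0 members passed, and 5 genes of all.

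Between fed mice and mice fasted for 24 h 0 of 28 members passed with edgeR, with or without fed library 2, where 0.0245% of all genes were called higher and 0.0098% lower. Before adjustment 5 of 28 members and 2118 of all 20408 genes had p below 0.05. With limma-voom and quality weights 9 members were called among 3952 genes, and with DESeq2 1 among 206, these members all lower. The members' median was -0.20, with 26 of 28 below 0, as were 49.2% of all genes. Olfml3 was at 8.95, 9.6 and 8.88 CPM at 24 h, below every fed library (-0.70 ± 0.19, adjusted p = 0.278). Tmem119, at 7.42, 14.5 and 8.44 CPM in libraries 1 to 3, straddled the fed range (-0.02 ± 0.26). Its highest value came from 24 h library 2, which stood far from the others of its group over all genes. The chi-square per degree of freedom was 95.9 with library 1 and 79.1 with library 3, against 3.51 between libraries 1 and 3. Without 24 h library 2, 56 genes were called against fed mice instead of 7, and still 0 members. From 24 h to 72 h Selplg fell (-1.07 ± 0.20, adjusted p = 0.0247), from 19.2, 26 and 20.1 CPM to the values above, and 0 other members passed. In that comparison 0.568% of all genes were called higher and 1.06% lower, and the members' median was -0.31. Striatal neuron markers were called lower in 10 of 12 cases (median -1.40), with sums of 1480 to 1670 CPM at 24 h and 693 to 788 CPM at 72 h, and their part in the Selplg value was not tested. The Selplg call was lost when 24 h library 2 or any one of the 72 h libraries was left out (adjusted p up to 0.159 over all alternatives). The comparisons against fed mice share the fed libraries.

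Cold added to the 72 h fast moved no member past the threshold in edgeR, DESeq2 or limma-voom. In edgeR 0% of all genes were called higher and 0% lower, 1296 of 20408 genes and 1 of 28 members had an unadjusted p below 0.05, and the members' median was 0.00. That member was Fcgr3, at 8.07, 6.82 and 8.86 CPM in the cold against 6.42, 5.47 and 6.09 CPM without it (0.40 ± 0.17, adjusted p = 0.745). Against fed mice, the cold group had 10 of 28 members lower and 0 higher, where 8.78% of all genes were called higher and 9.16% lower. They were Olfml3 (-1.33 ± 0.20, adjusted p = 0.00298), Fcrls (-1.56 ± 0.24), Cd68 (-0.89 ± 0.18), Selplg (-1 ± 0.20), Aif1 (-1.08 ± 0.24), Csf1r (-0.56 ± 0.13), Ly86 (-0.65 ± 0.15), Trem2 (-0.83 ± 0.23), Mpeg1 (-0.55 ± 0.16) and Siglech, a sialic acid-binding lectin of microglia (-0.49 ± 0.15, adjusted p = 0.0403). Aif1 was at 2.88, 2.44 and 2.19 CPM in fed libraries and at 0.886, 1.36 and 1.29 CPM in the cold, and Trem2 at 4.32, 5.35 and 4.33 CPM against 1.99, 3.17 and 2.73 CPM. Neither gene's groups overlapped. The count was 3 without cold library 1. Leaving out fed library 1, 2 or 3 gave 5, 6 and 16. With a surrogate variable 0 members passed.

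Other cell markers were also lower in the fasted groups. Between fed and 72 h libraries, 2 of 10 border macrophage markers were called lower (Stab1, a scavenger receptor gene, -0.62 ± 0.15, and Pf4, -2.39 ± 0.62), and the list's summed level was 37.6 to 46.1 CPM in fed and 26.7 to 33.6 CPM in fasted libraries. Of vascular markers, 5 of 10 mural genes (230 to 286 CPM against 124 to 158 CPM) and 6 of 10 endothelial genes (370 to 409 CPM against 254 to 272 CPM) were called lower. Of striatal neuron markers 9 of 12 were called lower (median -1.13), with sums of 953 to 1680 CPM in fed and 693 to 788 CPM in 72 h libraries, as were 3 of 9 meningeal fibroblast and 2 of 10 astrocyte genes. All 4 erythrocyte genes tested were lower, from sums of 7.35 to 16.2 CPM to sums of 0.841 to 2.33 CPM, as were 5 of 9 choroid plexus genes. For monocytes and neutrophils 0 of 5 genes passed, with sums of 6.92 to 8.42 CPM against 5.45 to 6.74 CPM. In the cold group against fed mice 7 of 12 striatal, 7 of 10 endothelial, 6 of 10 mural, 5 of 9 meningeal fibroblast and 3 of 10 border macrophage genes were called lower. Liver markers were called lower in 5 of 9 cases at 72 h (median -7.39) and in 6 of 9 in the cold group (median -8.14). For skeletal muscle markers it was 5 of 8 in both, with medians of -6.84 and -6.74. Among fed libraries the liver and muscle sums were far the highest in library 2, as given above, and its part in these medians was not tested. The part of all these other cells in the members' values was not tested either. Among 26 further microglial genes 4 were lower and 0 higher at 72 h, with a median of -0.24: Dock8 (-0.55 ± 0.13), Cst3 (-0.74 ± 0.18), Ikzf1 (-0.48 ± 0.12) and Crybb1 (-0.99 ± 0.27). Of 18 genes of disease-associated microglia only Lpl, lipoprotein lipase, was called lower (-2.36 ± 0.50), and fed libraries varied widely in it (21.2 ± 18.8 CPM, SD, n = 3, against 4.11 ± 0.649 CPM). Of 9 cytokine and NF-kB genes Tnfaip3, an inhibitor of that pathway, was lower (-0.78 ± 0.24) and 0 were higher.

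From 1 h to 12 h of refeeding 11 of 28 members rose and 1 fell, where 7.08% of all genes were called higher and 7.14% lower. Of the 9 homeostatic genes 7 rose, with a median log2 fold change of 0.60. Of activation genes 2 of 10 rose and 1 fell (median 0.18), of C1q genes 0 of 3 passed (median 0.27), and of pan-myeloid genes 2 of 6 rose (median 0.21). The median of all genes was 0.00.

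Fcrls was at 3.95, 3.97 and 2.81 CPM after 1 h and at 9.41, 8.71 and 8.59 CPM after 12 h, a log2 fold change of 1.32 ± 0.13 (adjusted p = 5.2e-05). Olfml3 was at 5.92, 5.78 and 6.43 CPM against 12.6, 11.4 and 12.1 CPM (0.99 ± 0.10, adjusted p = 6.89e-05). Cx3cr1 was at 18.1, 21.8 and 19 CPM against 36.5, 31.6 and 32 CPM (0.77 ± 0.09, adjusted p = 0.000143). In all 3 of these genes the groups stood well apart, and the spread within a group was small beside the difference. Tmem119 was at 6.72, 7.25 and 7.24 CPM and then at 12.9, 9.78 and 9.5 CPM (0.60 ± 0.12, adjusted p = 0.00641). Siglech rose by 0.66 ± 0.13 and Selplg by 0.50 ± 0.10. Itgb5, an integrin subunit gene that other brain cells also express, rose by 0.29 ± 0.06 (adjusted p = 0.00895), and its call was lost without 1 h library 2 (adjusted p = 0.0509). The 2 homeostatic genes that did not pass were Csf1r, at 53.4, 52.2 and 48.7 CPM against 64.5, 55.7 and 57.5 CPM (0.20 ± 0.08, adjusted p = 0.116), and the transcription factor gene Sall1 (-0.10 ± 0.08, adjusted p = 0.446).

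Activation genes went in different directions. Aif1 rose from 0.764, 0.906 and 0.718 CPM to 2.38, 1.68 and 1.33 CPM (1.16 ± 0.24, adjusted p = 0.00636). Fcgr3 fell from 7.74, 6.9 and 8.1 CPM to 4.76, 4.98 and 5.34 CPM, a log2 change of -0.59 ± 0.12 (adjusted p = 0.00659) with no overlap. Lyz2, which encodes lysozyme and is used as a macrophage gene, was at 3.73, 1.95 and 3.32 CPM and at 5.26, 4.74 and 4.07 CPM (0.63 ± 0.20, adjusted p = 0.0467), and its call was lost without any one of the 12 h libraries or without 1 h library 2 or 3. Trem2 (0.06 ± 0.15), Tyrobp (0.29 ± 0.17), Ctss (0.14 ± 0.10), Cd68 (-0.13 ± 0.16), Cd14 (0.23 ± 0.28), Fcer1g (0.34 ± 0.16) and Tlr2 (0.01 ± 0.21) did not pass. C1qa was at 11.2, 10.6 and 11.3 CPM against 16.4, 13 and 11.6 CPM (0.31 ± 0.12, adjusted p = 0.114). Of pan-myeloid genes Ly86 rose by 0.76 ± 0.14 and the lysosomal gene Laptm5 by 0.47 ± 0.12. The Laptm5 call was lost without 12 h library 3 or 1 h library 2 or 3. Spi1 (0.27 ± 0.19), Mpeg1 (0.14 ± 0.11), Srgn (-0.13 ± 0.26) and Cd33 (-0.02 ± 0.13) did not pass. The number of members called was between 9 and 12 when any single library was left out.

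Among 26 further microglial genes 5 rose and 0 fell over the same hours, and Slc2a5, a fructose transporter gene that marks microglia in the brain, went from 1.45 ± 0.14 to 3.68 ± 0.149 CPM (SD, n = 3; 1.34 ± 0.16, adjusted p = 0.000244). Lpcat2 (0.42 ± 0.07), Crybb1 (0.82 ± 0.20) and Hpgds (0.40 ± 0.10) rose as well. Of 8 cytokine and NF-kB genes (median -0.02) the chemokine gene Ccl12 rose from a low level (0.066 ± 0.0374 to 0.319 ± 0.255 CPM, SD, n = 3; 2.27 ± 0.70, adjusted p = 0.0437) and Nfkbia, an inhibitor and target of NF-kB, fell (-0.61 ± 0.18, adjusted p = 0.0394). Border macrophage markers moved in the same hours, with 3 of 9 called higher (Cbr2 1.5 ± 0.36, Mrc1 0.68 ± 0.20, Clec4n 1.34 ± 0.42), although their sums overlapped (25.3 to 39.4 CPM at 1 h and 35.1 to 39.3 CPM at 12 h). Of meningeal fibroblast genes 2 of 9 were higher, of astrocyte genes 4 of 10 lower, and of 10 oligodendrocyte genes 3 were higher and 4 lower. For monocytes and neutrophils 0 of 6 genes passed, and for erythrocytes 0 of 4. Their part in the members' values was not tested.

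Between 12 h and 1 week 3 members rose and 1 fell, where 6.56% of all genes were called higher and 5% lower, and the members' median was 0.00. Ctss was at 22.2, 18.3 and 17.8 CPM at 12 h and at 24.8, 29.2, 29.6 and 25.5 CPM at 1 week (0.49 ± 0.10, adjusted p = 0.00618). Fcrls, at 11.7, 13.2, 13.9 and 12.4 CPM at 1 week, rose by a further 0.53 ± 0.11 (adjusted p = 0.00975) and Mpeg1 by 0.42 ± 0.10. Selplg fell by 0.35 ± 0.09, from 19.9, 19.8 and 20.1 CPM to 15.1, 13.9, 17.4 and 15.9 CPM. Without 12 h library 3, 0 members passed, and without 12 h library 2 there were 2. The Selplg call was lost without either of these and also without 1-week library 1 or 2. Olfml3, Siglech, Aif1, Tmem119 and Csf1r had values between -0.02 and 0.00. Over the same time 4 of 4 erythrocyte, 7 of 10 astrocyte, 5 of 10 oligodendrocyte and 4 of 9 meningeal fibroblast genes were called higher. Called lower were 3 of 10 endothelial genes and 1 of 10 mural genes. The part of all these cells in the members' values was not tested. With a surrogate variable 0 members passed.

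Set against 1 h, 1 week of refeeding had 16 of 28 members higher and 2 lower, where 13.5% of all genes were called higher and 13.5% lower. Fcrls had the widest change (1.84 ± 0.12, adjusted p = 6.26e-07). By class, 6 of 9 homeostatic genes rose and 1 fell (median 0.58), 5 of 10 activation genes rose and 1 fell (median 0.49), and 2 of 3 C1q and 3 of 6 pan-myeloid genes rose. Members that passed here but not between 1 h and 12 h included Ctss (0.63 ± 0.10), Mpeg1 (0.56 ± 0.10), C1qb (0.48 ± 0.10), C1qa (0.44 ± 0.12), Trem2 (0.47 ± 0.13) and Tyrobp (0.53 ± 0.16). Trem2 was at 3.57, 3.31 and 3.47 CPM after 1 h and at 4.36, 4.16, 5.7 and 4.8 CPM after 1 week. Tyrobp was at 3.53, 3.41 and 2.75 CPM against 3.53, 4.96, 5.53 and 4.63 CPM, and its groups touched. The 2 that fell were Fcgr3, at 4.37, 4.96, 4.96 and 5.54 CPM (-0.61 ± 0.11, adjusted p = 0.00119), and Sall1, at 30.7, 32.4 and 26.7 CPM against 22.3, 23.3, 24.8 and 24 CPM (-0.34 ± 0.08, adjusted p = 0.00418). Lost on leaving out 1 library were the calls of Trem2 (1 h library 2 or 3), Tyrobp (1 h library 3 or 1-week library 3) and Laptm5 (5 of 7 libraries). The 3 refeeding comparisons share libraries and are not independent. At 1 week all 4 erythrocyte genes were higher than at 1 h (sums of 401 to 1260 CPM against 68.4 to 123 CPM), as were 6 of 9 meningeal fibroblast genes (111 to 150 CPM against 36.3 to 65.8 CPM) and 4 of 9 border macrophage genes (33.5 to 38.5 CPM against 25.3 to 39.4 CPM). Of 10 oligodendrocyte genes 6 were higher and 3 lower, and of 10 astrocyte genes 4 were higher and 1 lower. Their part in the members' values was not tested.

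The 2 classes were also set against each other within a library, as the mean log2 CPM of the homeostatic genes minus that of the activation genes with a count in every library of the table. In the refeeding table, with 9 homeostatic and 10 activation genes, the difference was 1.99, 2.2 and 2.13 at 1 h, 2.53, 2.4 and 2.5 at 12 h, and 2.33, 2.22, 2.29 and 2.29 at 1 week. Every 12 h library lay above every other refeeding library, and every 1-week library lay above every 1 h one. In the fasting table the difference was 1.91 to 2.07 in fed, 1.74 to 1.96 at 24 h, 1.64 to 2.11 at 72 h and 1.6 to 1.97 in cold libraries. These ranges overlapped, both class means being lower at 72 h (homeostatic 4.19 to 4.52 in fed and 3.67 to 3.75 at 72 h, activation 2.15 to 2.57 and 1.56 to 2.09). In the 1-month table, with 12 and 10 genes, it was 1.68, 1.75, 1.76 and 1.6 in controls and 1.39, 1.29, 1.34 and 1.39 in refed libraries, with no overlap. These are descriptions of scores over chosen genes and carry no test.

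**Figure D3:**
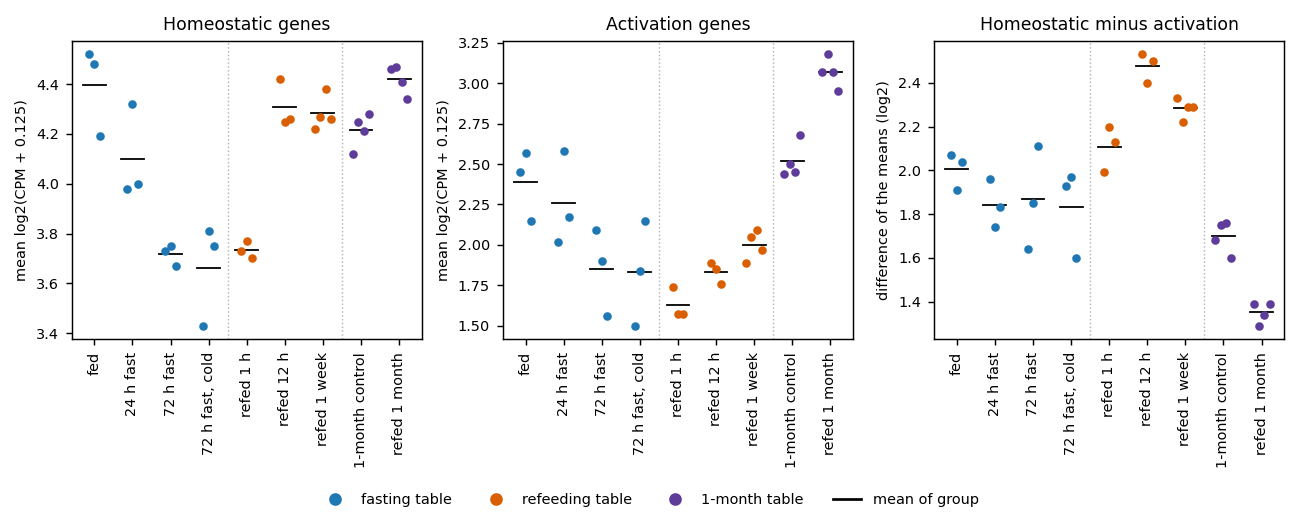
Mean log2 CPM of the homeostatic genes (left), of the activation genes (middle) and their difference (right) in each library, by group; points are libraries and bars group means. In the right panel the 12 h libraries lie between 2.4 and 2.53, above the other refeeding libraries, and the 1-month refed libraries lie between 1.29 and 1.39, below their controls at 1.6 to 1.76.

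One month after the fast 10 of 32 members were higher in refed mice than in their fed controls, and 0 were called lower by edgeR, DESeq2 or limma-voom. Of all genes 6.37% were called higher and 3.76% lower. The 10 were all 3 C1q genes, 3 of 10 activation genes (Fcgr3, Lyz2 and Cd14), 3 of 7 pan-myeloid genes (Srgn, Mpeg1 and Ly86) and 1 of 12 homeostatic genes (Olfml3). The members' median was 0.34, with medians of 0.20 for homeostatic, 0.48 for activation, 0.44 for C1q and 0.50 for pan-myeloid genes, and that of all genes was 0.00.

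Srgn, which encodes serglycin, a granule proteoglycan that many blood and endothelial cells also make, was at 2.21, 2.79, 3.45 and 3.87 CPM in control libraries 2, 3, 4 and 5 and at 9, 12.5, 8.66 and 8.98 CPM in refed libraries 1, 2, 4 and 5. Every refed library lay above every control, and the log2 fold change was 1.67 ± 0.20 (adjusted p = 6.07e-05). Lyz2 was at 4.13, 3.64, 4.31 and 7.74 CPM in controls and at 14.3, 26.2, 10.3 and 10.5 CPM in refed libraries, with a wide spread in the refed group (1.64 ± 0.37, adjusted p = 0.0263). Olfml3 was at 16.6, 18.2, 14.5 and 19.1 CPM against 26.8, 29.6, 26 and 27.8 CPM (0.68 ± 0.11, adjusted p = 0.000576). Cd14 was at 1.54, 1.63, 1.44 and 1.32 CPM against 2.59, 3.08, 3.86 and 2.01 CPM (0.96 ± 0.26, adjusted p = 0.0265). The groups did not overlap in any of these genes.

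The C1q chains, which start the classical complement pathway and in the brain come mainly from microglia, were each called higher. C1qa was at 16.1, 23, 26 and 25.3 CPM in controls and 30.5, 32.3, 29.9 and 29.9 CPM in refed libraries (0.44 ± 0.12, adjusted p = 0.0314), C1qb rose by 0.43 ± 0.10 (adjusted p = 0.0134) and C1qc by 0.45 ± 0.10 (adjusted p = 0.00664). The C1qa call was lost in 6 of 8 fits with 1 library left out, and that of C1qb in 2. Over all alternatives the C1qa log2 value went down to 0.12. Each C1q call was lost with a surrogate variable and with a replicate block. Fcgr3 was at 5.47, 6.11, 7 and 7.33 CPM against 10.7, 7.95, 10.3 and 10.2 CPM (0.59 ± 0.16, adjusted p = 0.024). Mpeg1 rose by 0.50 ± 0.13 and Ly86 by 0.64 ± 0.19.

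Of the homeostatic genes only Olfml3, above, which encodes a secreted matrix protein, passed at 1 month. Meningeal fibroblast and mural markers rose in the same libraries, as given below, and their part in the Olfml3 value was not tested. P2ry12 was at 12.5, 12.8, 18.3 and 19.5 CPM in controls and at 18, 18.8, 19.2 and 18.7 CPM in refed libraries (0.24 ± 0.14, adjusted p = 0.275). Cx3cr1 was at 17.5, 20.8, 19.6 and 18.2 CPM against 23.5, 19.3, 20.4 and 18.7 CPM (0.11 ± 0.11, adjusted p = 0.553), and Csf1r at 75, 97.1, 85.7 and 97 CPM against 107, 108, 98.5 and 92.2 CPM (0.19 ± 0.09, adjusted p = 0.162). Tmem119, at 7.78, 9.36, 7.67 and 7.82 CPM against 11.2, 12, 10.1 and 10.3 CPM, did not overlap between groups but missed the threshold (0.42 ± 0.14, adjusted p = 0.0596). P2ry13 (0.10 ± 0.16), Gpr34 (0.35 ± 0.20), Siglech (-0.17 ± 0.15), Fcrls (0.13 ± 0.11), Selplg (-0.14 ± 0.10), Sall1 (0.20 ± 0.10) and Itgb5 (0.28 ± 0.09, adjusted p = 0.051) did not pass either. Trem2 was at 5.47, 4.1, 3.84 and 6.75 CPM in controls and at 5.18, 7.02, 6.49 and 6.65 CPM in refed libraries (0.33 ± 0.20), and Cd68 at 4.99, 5.73, 6.52 and 8.31 CPM against 10.1, 7.67, 9.5 and 8.24 CPM (0.47 ± 0.17, adjusted p = 0.0879). Tyrobp (0.32 ± 0.14), Aif1 (0.12 ± 0.22), Tlr2 (0.54 ± 0.18), Spi1 (0.78 ± 0.31) and Irf8 (0.19 ± 0.23) did not pass, nor did Ctss, Fcer1g, Laptm5 and Cd33, with values from 0.19 to 0.49.

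Markers of other cells rose in the same refed libraries. Of 6 border macrophage markers 5 were higher (median 1.38), among them the mannose receptor gene Mrc1 (6.36 ± 1.18 to 18.5 ± 5.13 CPM, SD, n = 4; 1.55 ± 0.20) and F13a1 (1.34 ± 0.22), and the list's sum was 44.3 to 60.8 CPM in controls and 77.5 to 112 CPM in refed libraries. All 10 meningeal fibroblast genes, a list chosen after the data had been seen, were higher (median 2.68), with sums of 89.2 to 212 CPM against 548 to 936 CPM. Mural genes were higher in 3 of 10 cases (241 to 285 CPM against 384 to 568 CPM) and endothelial genes in 5 of 10 (348 to 418 CPM against 430 to 550 CPM). Erythrocyte sums overlapped (1110 to 1840 CPM and 1370 to 4320 CPM), with 0 of 5 genes called, and of 3 monocyte and neutrophil genes tested Ly6c2 was higher (0.87 ± 0.25). Of oligodendrocyte genes 3 of 10 were higher, of astrocyte genes 2 of 10, and of neuronal genes 2 of 10 were lower. The part of these cells in the members' rise was not tested. Refed library 2 was highest in the border macrophage, meningeal, mural and erythrocyte sums. Of called members with values per library above, it was highest in Srgn, Lyz2, Olfml3 and C1qa and not in Cd14 or Fcgr3. Without this library 5 members passed. The count was also 5 without control library 2, 4 without control library 3, 5 without refed library 1 and 5 without refed library 4. It was 2 with a surrogate variable. Olfml3, C1qc and Srgn passed whichever single library was left out, and of these only Olfml3 and Srgn also passed under every other alternative.

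**Figure D4:**
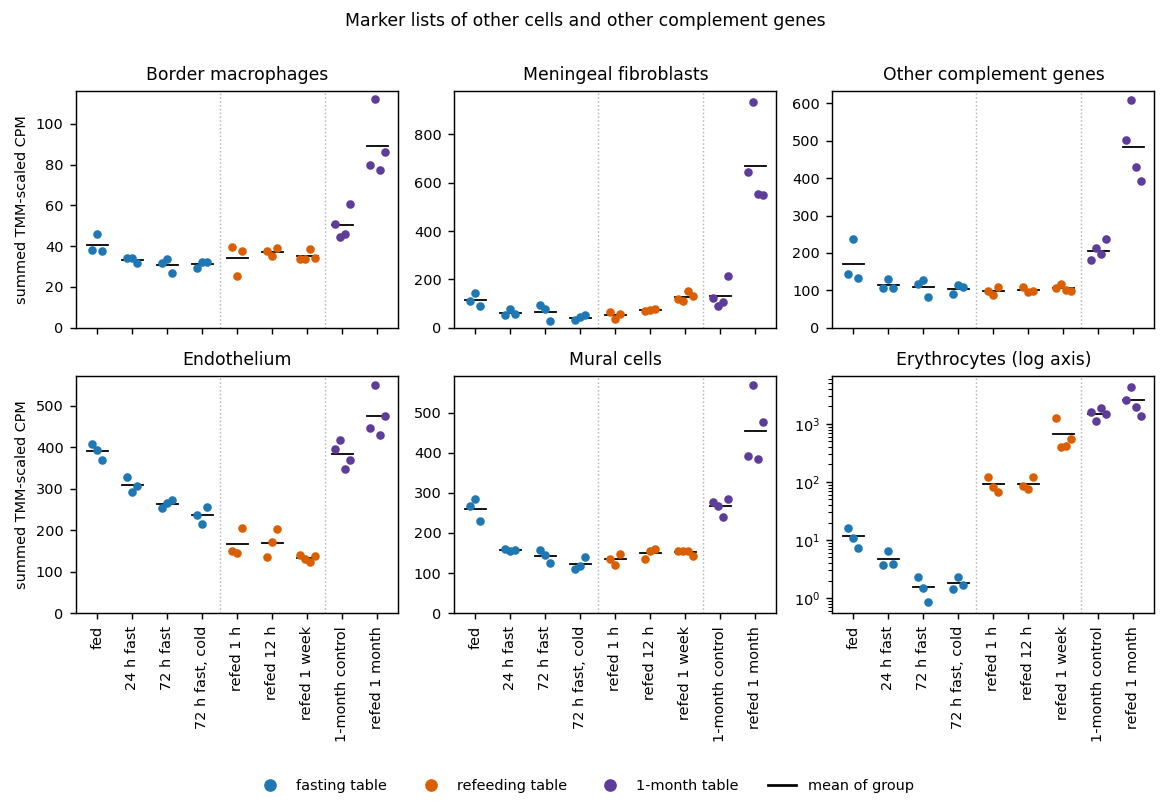
Summed TMM-scaled CPM of marker lists in each library, by group (erythrocytes on a log axis, the others from 0); points are libraries and bars group means. In the 1-month table the refed libraries lie above their controls in border macrophage (77.5 to 112 against 44.3 to 60.8), meningeal fibroblast (548 to 936 against 89.2 to 212) and other complement genes (392 to 608 against 180 to 236).

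Of 12 other complement genes 8 were higher at 1 month and 0 lower (median 0.92). They included the inhibitors Serping1 (12.3 ± 5.85 to 60.7 ± 11.7 CPM; 2.29 ± 0.30) and Cd55 (0.92 ± 0.17), and C4b (123 ± 11.5 to 217 ± 42.7 CPM; 0.81 ± 0.13), a substrate of the C1 complex. Of 18 disease-associated microglia genes 8 were higher and 1 lower (median 0.35), led by B2m, the light chain of class I antigen presentation (0.69 ± 0.09), Cd9 (0.66 ± 0.14), Axl (0.35 ± 0.08) and Gpnmb (1.17 ± 0.28). Several of these are also expressed outside microglia. Among 8 cytokine and NF-kB genes Icam1 (1.20 ± 0.22), Nfkbia (0.51 ± 0.13) and Tgfb1 (0.72 ± 0.21) were higher and 0 were lower.

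The signals that act on microglia were read as well. Csf1, a ligand of the CSF1R receptor, passed in none of the 9 comparisons, with 32.1 CPM when fed and 34.5 CPM after 72 h of fasting as group means (0.10 ± 0.10) and 34.4 and 40.4 CPM at 1 month (0.24 ± 0.09, adjusted p = 0.0987). Il34, the second ligand and largely neuronal, was lower in the cold group than in fed mice (15.2 ± 2.57 to 10.1 ± 1.54 CPM; -0.60 ± 0.16, adjusted p = 0.0236) and passed in no other. Cx3cl1, the neuronal fractalkine that binds CX3CR1, had a value of -0.58 ± 0.19 at 72 h (adjusted p = 0.0534) and fell from 12 h to 1 week of refeeding (287 ± 30.6 to 205 ± 34 CPM; -0.48 ± 0.13, adjusted p = 0.0353). Tgfb1, the factor that maintains the homeostatic program, was lower in the cold than in fed mice (-0.93 ± 0.23, adjusted p = 0.0203), fell from 12 h to 1 week (-0.57 ± 0.12, adjusted p = 0.00813) and was higher at 1 month. Its receptor genes Tgfbr1 (0.50 ± 0.11) and Tgfbr2 (0.66 ± 0.15) were also higher at 1 month, and Tgfbr2 rose from 1 h to 12 h of refeeding (0.41 ± 0.11). Of the 13 signal genes 3 were lower at 72 h than in fed mice: Entpd1, an ectoenzyme that degrades ATP (-0.53 ± 0.13), Sirpa, the receptor for the CD47 signal (-0.35 ± 0.09), and Nrros, which anchors TGF-beta on microglia (-0.44 ± 0.12).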

How the data were processed

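RNA was extracted with a Qiagen RNeasy kit and libraries were made with a directional NEBNext kit after rRNA depletion, per the labels' protocols. The authors deposited 3 tables of raw read counts per Ensembl gene. HISAT2, featureCounts, edgeR and the build mm10 are named in the submitters' processing notes; their settings and versions are not given in the sources used here. From the deposited counts, 9 comparisons were fitted within each table with edgeR 4.0.16 in R 4.3.3 (TMM scaling, filterByExpr, quasi-likelihood test over all genes, Benjamini-Hochberg adjustment, threshold 0.05, prior count 0.125). CPM are TMM-scaled, and log2 CPM carry an offset of 0.125. Alternatives used DESeq2 1.42.0, limma 3.58.1 (voom with quality weights), sva 3.50.0, other scaling and filters, a replicate block and each library left out. The fitting code was tested on simulated data. In all, 2 columns matched no sample and were not used. Gene spans came from GENCODE on GRCm38, promoters from RefSeq on GRCm38.p6. The members and lists were chosen with earlier results of these data known, the meningeal fibroblast list after seeing the data; 224 of 225 further list symbols had an identifier. Every member is accounted for. Values per library are given for called members and, called or not, for a fixed set of markers, and up to 4 called genes are named from each other list. Replicate pairs differed beyond sampling noise in 36 of 36 cases (chi-square per degree of freedom 3.19 to 106).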

Additional observations from a re-analysis of the deposited data

Results flagged for a closer look

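Of 94 sets of 4 libraries examined, 1 per member and group, 4 held a library far from the others; chance alone flags about 1 in 20 groups. Cd14 was at 1.22 CPM in 1-week refed library 3 and at 0.954 to 0.987 CPM in the other 1-week libraries. Among the 1-month controls, Lyz2 was at 7.74 CPM in library 5 against 3.64 to 4.31 CPM in the rest, and Tmem119 was at 9.36 CPM in library 3 against 7.67 to 7.82 CPM. Srgn was at 12.5 CPM in 1-month refed library 2 and at 8.66 to 9 CPM in the other refed libraries.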

How the results depend on the processing

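The number of members called kept its side of the threshold, within 1.5 times, for 1 h against 12 h and 1 h against 1 week of refeeding under each alternative run, and stayed at 0 for cold against the 72 h fast. Fed against 24 h gave 0 with edgeR, 1 with DESeq2 and 9 with limma-voom quality weights. The 24 h to 72 h count of 1 was 6 with DESeq2, 5 with voom, 0 with a surrogate variable and 0 to 1 when 1 library was left out. Fed against 72 h, with 9, gave 20 with voom, 0 with a surrogate variable and 2 to 14 with 1 library left out. Fed against cold, with 10, gave 21, 0 and 3 to 16 in the same order. The 12 h to 1 week count of 4 was 7 with DESeq2, 0 with a surrogate variable and 0 to 4 with 1 library left out. The 1-month count of 10 was 2 with a surrogate variable and 4 to 14 with 1 library left out. The cause of these differences was not tested. Deviations of same-numbered libraries from their group means had correlations of -0.234 to 0.333 in the fasting table. They were -0.057 to 0.258 in the refeeding and -0.062 to -0.017 in the 1-month table. Those of other pairs were -0.416 to 0.321, -0.217 to 0.203 and -0.123 to 0.187 in the same order. With so few pairs these ranges cannot decide whether the numbers pair samples, and the labels do not state a pairing. The 1-week libraries carry here the numbers of their titles, from which some of their library names differ, and the same-numbered refeeding pairs depend on that choice. With a replicate block the 1-month count was 2, that of fed against 72 h 8 and that of 1 h against 12 h 12. This fit kept only libraries whose number occurs in both groups compared. At 1 month it therefore also left out control library 3 and refed library 1, and the part of the block itself cannot be told apart. No fold change of a called member reversed, and 158 recomputed values of called members missed the threshold while 770 passed. The 1-month libraries, at 9347942 to 13813956 counts, were the shallowest. Their table also held the fewest genes, 22371, of which 14867 were tested, and the part of depth in that number was not tested.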
